A study of Mus musculus with 16 samples.

Results

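MHC class II molecules are heterodimers of an alpha and a beta chain that carry peptides from the endosome to the cell surface and show them to CD4+ T cells. The chains assemble with the invariant chain, are loaded with peptide by the DM heterodimer, and are transcribed under the coactivator CIITA, which a complex of RFX, CREB and NF-Y factors recruits to their promoters. B cells, dendritic cells and macrophages are the usual source of these transcripts, and resting neurons are not known for them. The genes described here are H2-Aa and H2-Ab1 (the I-A alpha and beta chains), H2-Eb1 (the I-E beta chain), H2-DMa and H2-DMb1 (the DM chains) and Ciita. They were taken by gene name from a list of 7, of which 6 matched a named probe set, 1 each, among the 19505 genes of the array. The invariant chain gene Cd74, also listed, was not analysed here.

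They were measured in olfactory mucosa of S100a5-tauGFP mice, in which tauGFP reports S100a5, a gene of olfactory sensory neurons that follows their activity. The labels give 24 mice of both sexes, 7 to 12 weeks old, kept singly in chambers supplied with clean air at 3.1 L per min for 40 h. After 26 h they received pulses of 10 s every 20 min, of octanoic acid in the odor groups and of filtered air in the vehicle groups. The labels name no strain and no other allele. Each replicate is a pool of 3 mice whose dissociated mucosa was sorted into GFP+ and GFP- cells, which gave 4 groups of 4 Clariom S arrays: GFP+ and GFP- cells with clean air, and GFP+ and GFP- cells with octanoic acid. A GFP- sample is therefore all cells of the dissociated mucosa that were sorted as unmarked by the S100a5 reporter.

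Signals are log2 values as deposited. The background is 6.20 log2, at which the median of 5222 negative-control probe sets lay. Their 95th percentile was 10.41 log2, so that a signal between those marks is not proof of a transcript. Precision is set by the 4 pools per group, since arrays carry no read depth. S100a5 was higher in GFP+ than in GFP- cells of a pool, by 1.32 ± 0.22 log2 in vehicle pools and by 1.53 ± 0.52 in odor pools (SD, n = 4), which checks the gate and is no finding. The 10 markers of mature olfactory neurons had mean signals of 16.17 to 16.52 log2 on the 16 arrays, so both sorted fractions hold much neuronal RNA. Over all genes, limma called 1138 higher and 1868 lower in GFP+ cells with clean air, and 1221 and 2126 with octanoic acid. That split moves with the scaling: quantile normalization gave 1813 and 1783, and 2587 and 2026, while centring each array on its median gave 6082 and 1571, and 7791 and 1715. The median gene stood at 0.11 log2 in both treatments as deposited and at 0.38 and 0.42 after array median centring. The GFP+ array of odor pool 3 had the lowest mean correlation with its group, 0.976, against 0.986 to 0.991 on the other arrays, and values without it are given where they matter.

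Promoter sequence is shown first, because these genes are known for a shared promoter layout. An X box, bound by the RFX complex, lies upstream of a Y box, an inverted CCAAT motif bound by NF-Y. In the promoter windows of RefSeq (GRCm38.p6), the 250 bases before each start were searched on both strands for TGATTGG, a Y box core, and for GNAAC followed by 20 to 30 bases and then TGATTGG. These letters were chosen with the windows in view, and the elements of the pair cannot overlap. Of the 6 genes, 4 had a window, and 3 of them (H2-Aa, H2-Eb1 and H2-DMb1) held the pair. Of all 27025 genes with a window, 82 held it (0.303%), and 8.38% held TGATTGG with or without the partner. Counted by window, 89 of 32851 held the pair (0.271%), and 7.23% held TGATTGG. In the 3 sequences below, capitals mark GNAAC and TGATTGG, and each is written 5′ to 3′ in the direction of transcription.
H2-Aa, chr17:34287847-34287924, minus strand: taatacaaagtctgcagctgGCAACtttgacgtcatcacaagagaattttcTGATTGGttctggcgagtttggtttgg
H2-Eb1, chr17:34305756-34305832, plus strand: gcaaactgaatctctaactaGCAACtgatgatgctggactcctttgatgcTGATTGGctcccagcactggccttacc
H2-DMb1, chr17:34153077-34153154, plus strand: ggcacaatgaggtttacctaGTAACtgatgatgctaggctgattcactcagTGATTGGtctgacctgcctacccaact
The gap between GNAAC and TGATTGG was 26, 25 and 26 bases in that order, and TGATTGG began at -50, -61 and -63 from the start. The pair was in neither of the windows of H2-DMa. A match describes letters in a window and does not show that a factor binds there.

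Among the 18 other pathway genes with a window, 3 held the pair, and all of them are class II chains. H2-Oa and H2-Ob encode the DO heterodimer, which restrains DM, and both are shown because they fell in GFP+ cells as described below.
H2-Oa, chr17:34092283-34092360, plus strand: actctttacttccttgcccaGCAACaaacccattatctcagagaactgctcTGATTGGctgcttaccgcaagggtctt
H2-Ob, chr17:34238798-34238872, plus strand: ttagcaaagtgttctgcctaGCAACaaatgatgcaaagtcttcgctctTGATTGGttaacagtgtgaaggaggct
H2-Eb2, an E beta-like chain, was the third. H2-DMb2 and the subunit genes Rfx5 and Nfyc and the factor Irf8 held TGATTGG without the partner.

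The comparison of GFP+ with GFP- cells of the same pool asks where class II transcripts lie relative to the reporter. Transcripts of the peptide-presenting chains were much lower in GFP+ cells in every pool of both treatments. The difference lay between -5.59 and -3.37 log2 in each of the 8 pools for H2-Aa and between -5.19 and -3.46 for H2-Ab1. It was smaller for H2-Eb1 and smallest, among the genes called, for the DM chains. Ciita lay at the background in both fractions. limma called 5 of the 6 genes lower in GFP+ cells with clean air, where 9.58% of all genes were called lower and 15.4% in either direction. It also called 5 with octanoic acid, where the shares were 10.9% and 17.2%. For those 5 genes all GFP+ arrays lay under all GFP- arrays of the same treatment, which held for 10.7% of all genes in each treatment. The 6 genes had a median difference of -1.70 log2 in vehicle pools and -2.20 in odor pools, beside 0.11 over all genes in each. Because the cells are bulk samples, fewer class II cells and less class II RNA per cell cannot be told apart.

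**Figure D1:**
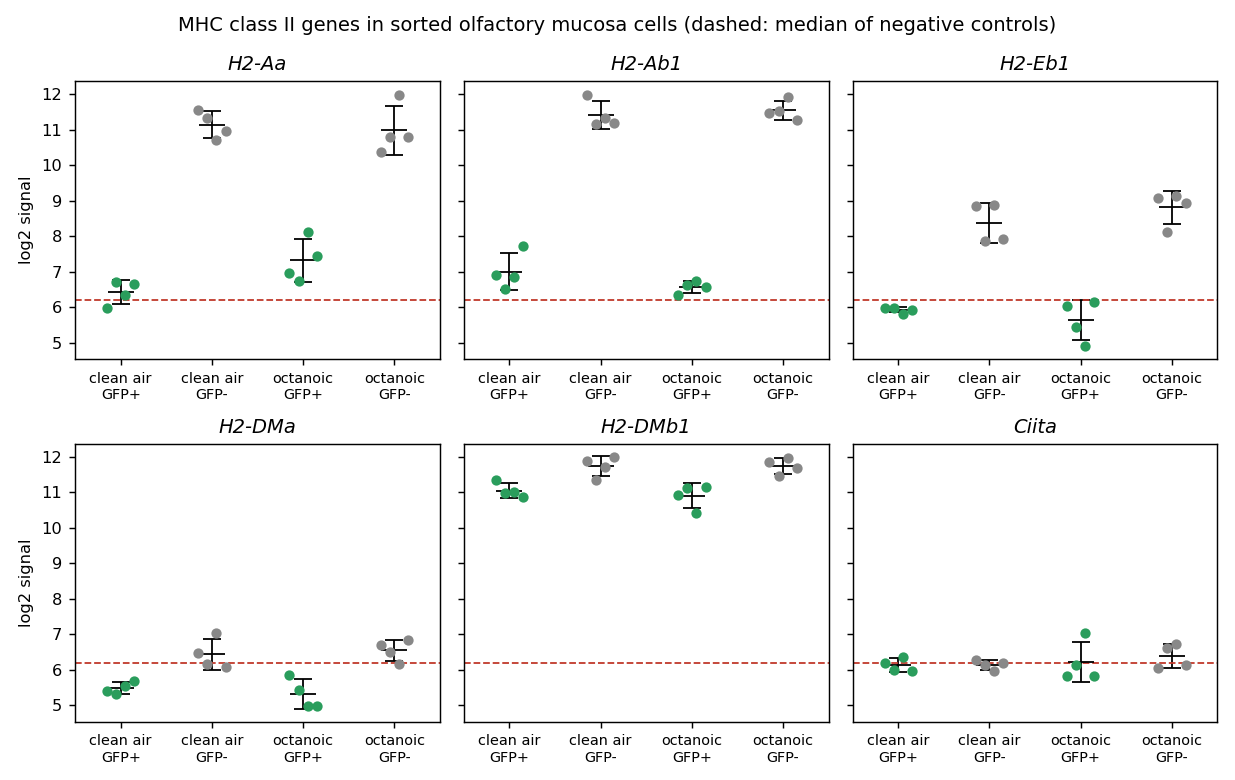
Log2 signal of the 6 class II genes on each of the 16 arrays (points, pools 1 to 4 from left to right), with the mean and SD of each group of 4 (black) and the background of 6.20 log2 (dashed line). H2-Aa, H2-Ab1 and H2-Eb1 separate GFP+ from GFP- cells clearly, H2-DMb1 is bright in both, and Ciita stays near the line.

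H2-Aa, the I-A alpha chain, stood at 11.57, 11.32, 10.73 and 10.96 log2 in GFP- cells of clean-air pools 1 to 4. In GFP+ cells of the same pools it stood at 5.98, 6.71, 6.35 and 6.65. The GFP+ values surround the background, and pool 1 lay under it. The within-pool difference was -4.72 ± 0.59 log2 (SD, n = 4), at least 25.4-fold (limma adjusted p = 6.79e-08). A fold is a lower bound ("at least") where the dimmer mean did not clear the background by 1 SD, and arrays under that line then count at its value. A fold of measured signals is also written "at least" where the dimmer mean cleared that line but lay under the 95th percentile of the controls. With octanoic acid H2-Aa stood at 10.39, 10.79, 11.98 and 10.81 log2 in GFP- cells and at 6.97, 6.75, 8.12 and 7.44 in GFP+ cells. Pool 3 was the highest of its treatment in both fractions. The difference was -3.67 ± 0.33 log2 (SD, n = 4), at least 12.7-fold (limma adjusted p = 3.30e-07).

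H2-Ab1, the I-A beta chain that pairs with H2-Aa, stood at 11.99, 11.17, 11.33 and 11.20 log2 in GFP- cells with clean air and at 6.90, 6.51, 6.84 and 7.74 in GFP+ cells. The highest GFP+ value, that of pool 4, was at -3.46 log2 from the GFP- array of its pool. The difference was -4.42 ± 0.69 log2 (SD, n = 4), at least 21.5-fold (limma adjusted p = 1.33e-07). With octanoic acid the GFP- values were 11.47, 11.52, 11.92 and 11.27 log2 and the GFP+ values 6.35, 6.63, 6.73 and 6.57. These GFP+ arrays lay close together, all a little above the background. The difference was -4.98 ± 0.22 log2 (SD, n = 4), at least 31.5-fold (limma adjusted p = 5.41e-08).

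H2-Eb1, the I-E beta chain, gave 8.86, 7.86, 8.88 and 7.91 log2 in GFP- cells with clean air, so that pools 1 and 3 lay above pools 2 and 4. All 4 GFP+ arrays lay under the background, at 5.98, 5.97, 5.82 and 5.92. The difference was -2.46 ± 0.60 log2 (SD, n = 4), at least 4.53-fold (limma adjusted p = 5.13e-05). With octanoic acid GFP- cells gave 9.07, 8.13, 9.12 and 8.93 log2 and GFP+ cells 6.04, 5.45, 4.91 and 6.15, again all under the background. Here the difference was -3.17 ± 0.71 log2 (SD, n = 4), at least 6.12-fold (limma adjusted p = 5.84e-06). No array exceeded the 95th percentile of the negative controls for this gene, whereas GFP- arrays did so for H2-Ab1 in 4 of 4 pools of each treatment.

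The DM chains, which exchange the invariant chain fragment for peptide, differed less. H2-DMa stood at 6.47, 6.17, 7.04 and 6.07 log2 in GFP- cells with clean air and at 5.41, 5.32, 5.55 and 5.69 in GFP+ cells. Only pools 1 and 3 of the GFP- cells rose above the background. The difference was -0.95 ± 0.46 log2 (SD, n = 4; limma adjusted p = 0.00824) between groups that both lay at the background, so no fold is given. With octanoic acid GFP- cells gave 6.70, 6.50, 6.16 and 6.83 log2 and GFP+ cells 5.87, 5.43, 4.98 and 4.99. This difference was -1.23 ± 0.43 log2 (SD, n = 4), at least 1.28-fold (limma adjusted p = 0.00130). With arrays under the background raised to it, H2-DMa was not called in either treatment (-0.28 and -0.36 log2; adjusted p = 0.455 and 0.285). It was also not called with clean air when vehicle pool 3 was left out (-0.76 log2, limma adjusted p = 0.0539), which with H2-DMb1 left 3 of 6 genes called.

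H2-DMb1 was bright in both fractions. With clean air it stood at 11.88, 11.35, 11.73 and 11.99 log2 in GFP- cells and at 11.34, 10.97, 11.03 and 10.87 in GFP+ cells. The fractions did not overlap, but the highest GFP+ array (11.34) nearly reached the lowest GFP- array (11.35). The difference was -0.69 ± 0.32 log2 (SD, n = 4), 1.61-fold (limma adjusted p = 0.0441). With octanoic acid GFP- cells gave 11.87, 11.46, 11.97 and 11.70 log2 and GFP+ cells 10.94, 11.13, 10.41 and 11.15, a difference of -0.84 ± 0.54 (SD, n = 4), 1.79-fold (limma adjusted p = 0.0150).

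These H2-DMb1 calls were the least stable of the set. With clean air the call was lost without any 1 of vehicle pools 1 to 4 (adjusted p = 0.0948, 0.0663, 0.120 and 0.209) and without odor pool 1 or 4 (0.0617 and 0.0511), and with octanoic acid without odor pool 1 or 3 (0.0562 and 0.0681). It was also lost with array median centring and with the floor at the background in both treatments. The neighbouring gene H2-DMb2 is a close copy, and signal of these probe sets may be shared. H2-DMb2 differed by -0.25 ± 0.34 log2 in vehicle pools and by -0.23 ± 0.31 in odor pools (SD, n = 4) and was not called (limma adjusted p = 0.398 and 0.417).

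Ciita, the coactivator on which class II transcription depends, gave 6.28, 6.14, 5.96 and 6.19 log2 in GFP- cells with clean air and 6.19, 5.98, 6.38 and 5.96 in GFP+ cells. With octanoic acid the GFP- values were 6.06, 6.62, 6.73 and 6.13 and the GFP+ values 5.83, 6.14, 7.03 and 5.83. The highest of these, the GFP+ array of odor pool 3, is the array that stood apart. Differences were -0.01 ± 0.29 and -0.18 ± 0.33 log2 (SD, n = 4; limma adjusted p = 0.972 and 0.520), with 95% intervals of -0.39 to 0.36 and -0.56 to 0.20. All 4 group means lay at the background, so that these arrays set no level for Ciita in any fraction.

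Across the wider class II pathway, 10 of 24 measured genes fell in GFP+ cells in each treatment and none rose. The median of this list was -0.27 log2 in vehicle pools and -0.33 in odor pools. This list and those that follow were tested on the values as deposited. Genes with a role in the endosome of antigen-presenting cells were among those that fell. Ifi30, the lysosomal thiol reductase that unfolds antigens, was lower by at least 18.5-fold with clean air (11.33 against 7.13 log2; difference -4.21 ± 0.31) and by at least 21.9-fold with octanoic acid (-4.46 ± 0.74; SD, n = 4). Ctss, the cathepsin that trims the invariant chain, was lower by at least 10.3-fold and 13.4-fold (-3.37 ± 0.58 and -3.75 ± 0.69 log2). Ctsl differed by less, -0.99 ± 0.54 and -1.15 ± 0.28 log2, and was called. The broadly expressed proteases Lgmn (0.14 ± 0.16 and 0.18 ± 0.24) and Ctsb (0.06 ± 0.21 and 0.01 ± 0.20) were not called. Thus 3 of 5 endosomal enzymes fell in each treatment.

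Both DO chains fell. H2-Ob was lower at least 1.62-fold in vehicle pools and at least 2.69-fold in odor pools (-1.49 ± 0.34 and -2.23 ± 0.84 log2; SD, n = 4). H2-Oa differed by -1.46 ± 0.54 log2, with both fractions at the background, and by -1.78 ± 0.25, at least 1.12-fold. H2-Eb2 lay at the background in both fractions and was not called. The ubiquitin ligase gene Marchf1, which limits surface class II in B and dendritic cells, was at least 3.09-fold and 4.97-fold lower, whereas its widely expressed relative Marchf8 was not called (-0.04 ± 0.18 and 0.06 ± 0.27 log2).

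None of the 6 measured subunit genes of the promoter complex was called in either treatment. They are Rfx5, Rfxap and Rfxank of the RFX complex, and Nfya, Nfyb and Nfyc of NF-Y. Their differences ran from -0.13 to 0.51 log2 with clean air and from -0.19 to -0.0014 with octanoic acid, and their smallest limma adjusted p were 0.183 and 0.561.

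Of the 3 other transcription factors of the list, 2 fell with clean air and 3 with octanoic acid. Spi1, the PU.1 factor of myeloid and B cells, was lower by at least 135-fold in vehicle pools (15.60 against 8.52 log2) and by at least 188-fold in odor pools. Irf1, an interferon-induced factor that acts on a Ciita promoter, was at least 4.00-fold and 4.38-fold lower (9.95 against 7.95 log2 and 10.06 against 7.93). Irf8 was called lower with octanoic acid alone (-1.04 ± 0.56 against -0.25 ± 0.51), while the test of the treatments against each other called no gene. Of 4 costimulatory genes Cd80 and Cd86 fell with clean air and Cd80 with octanoic acid, all with both fractions at the background, and Cd40 and Cd83 were not called.

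Markers of leukocytes were lower in GFP+ cells as well. All 12 measured pan-leukocyte genes fell in each treatment, with medians of -5.06 and -5.58 log2. The mean signal of that list ran from 6.41 to 6.94 log2 on the GFP+ arrays and from 10.74 to 12.03 on the GFP- arrays of vehicle pools. In odor pools it ran from 6.33 to 7.12 and from 10.86 to 13.03. In GFP+ cells 5 of the 12 group means lay under the background with clean air (Cd52, Cd53, Fcer1g, Rac2 and Tyrobp) and those 5 and Coro1a did with octanoic acid. Ptprc, which encodes CD45, differed by -5.05 ± 0.61 and -4.88 ± 0.80 log2 (SD, n = 4), beside -4.72 and -3.67 for H2-Aa and -4.42 and -4.98 for H2-Ab1. The difference was -2.46 and -3.17 log2 for H2-Eb1 and smaller for the DM chains and Ciita. Signals at or under the background limit the differences that can be measured for H2-Eb1, H2-DMa and Ciita. The part of leukocyte content in the class II differences was not tested.

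Lists of the cell types known for class II had smaller median differences than the pan-leukocyte list. Several of their genes lay near the background in both fractions, which limits the difference that can be measured. Of 9 B cell genes 7 fell in each treatment (medians -1.13 and -1.27 log2), with Cd79a, a chain of the B cell receptor complex, at least 8.72-fold and 13.8-fold lower. The mean of that list ran from 7.18 to 8.15 log2 in GFP- cells with clean air and from 7.81 to 8.10 with octanoic acid, against 6.24 to 6.38 and 6.20 to 6.68 in GFP+ cells. In GFP- cells Cd22, Fcrla and Vpreb3 stayed under the background. The genes not called were Blk and Ebf1, a factor that olfactory neurons also express and whose means ran from 16.87 to 17.17 log2 over the 4 groups. Ebf1 is counted in the list mean and raises it in both fractions.

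Of 9 macrophage genes 7 fell with clean air and 6 with octanoic acid (medians -1.06 and -1.03 log2), with the receptor Csf1r at least 6.26-fold and 8.51-fold lower. Their mean ran from 7.16 to 7.62 and from 6.87 to 7.39 log2 in GFP- cells and from 5.52 to 6.74 and from 5.55 to 6.52 in GFP+ cells. Mertk lay under the background in all 4 groups. Of 10 dendritic cell genes 4 fell with clean air and 3 with octanoic acid, where Xcr1 was called higher from values under the background. The defining genes Batf3, Clec9a, Flt3, Itgax, Xcr1 and Zbtb46 had group means under the background in all 4 groups, and the list mean ran from 5.17 to 5.99 log2 over the 16 arrays. Of the 4 genes with GFP- means above the background, Siglech and Cd209a fell in both treatments, and Ccr7 and Clec10a were not called. Other lists set the range: all 9 neutrophil genes fell (medians -9.05 and -8.91 log2), as did 3 of 7 T cell genes in each treatment. Of 8 sustentacular genes 4 and 3 fell. In each treatment 1 of 10 neuron genes rose, which is no result beside the 5.83% and 6.26% of all genes called higher. The 6 endothelial genes had group means under the background throughout, and 2 were called lower with octanoic acid.

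**Figure D2:**
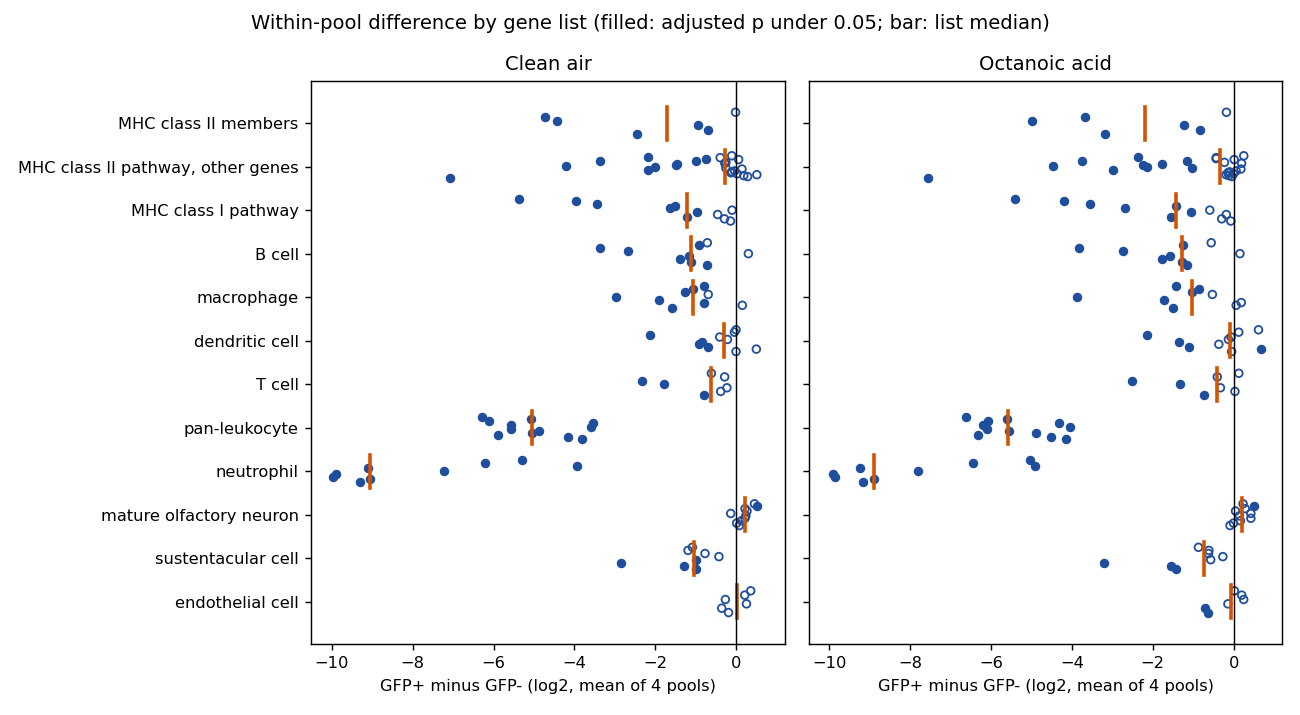
Within-pool difference, GFP+ minus GFP- in log2 (mean of 4 pools), of each gene in 12 lists, with clean air (left) and octanoic acid (right). Filled points passed an adjusted p of 0.05, open points did not, and orange bars mark list medians. The class II genes spread from near 0 to below -4 in each treatment, while the mature neuron genes sit near 0. With clean air H2-Aa (-4.72) and H2-Ab1 (-4.42) lie within the range of the pan-leukocyte genes (-6.28 to -3.53). With octanoic acid that range is -6.63 to -4.04, and H2-Ab1 (-4.98) lies within it but H2-Aa (-3.67) does not. The other class II genes differ by less than either range, and low signal limits H2-Eb1, H2-DMa and Ciita.

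Among the GFP- samples, the pool highest in class II signal was not the pool highest in pan-leukocyte markers in either treatment. With clean air the mean over the 6 class II genes was 9.51 log2 in pool 1, 9.28 in pool 3 and 9.05 in pool 4, with pool 2 a little below that. Pool 1, the highest, had the lowest pan-leukocyte mean of its treatment, 10.74 log2, the lowest neutrophil mean, 12.58, and the highest B cell mean, 8.15. Its macrophage mean (7.16) and its dendritic cell mean (5.58, under the background) were also the lowest of its treatment. With octanoic acid the class II means were 9.26, 9.17, 9.65 and 9.28 log2, highest in pool 3. That pool had the lowest B cell mean of its treatment (7.81) and a pan-leukocyte mean (11.88) above that of pool 1 alone. Its macrophage (7.32) and dendritic cell (5.88) means were below those of pool 4 alone. The GFP- array of odor pool 3 held the highest value of all 8 GFP- arrays for 3 of the 6 genes (H2-Aa, H2-Eb1 and Ciita) and a value among the 2 highest for 5. At the other end the GFP- array of vehicle pool 2 was the lowest for 3 genes (H2-Ab1, H2-Eb1 and H2-DMb1). These are descriptions of single arrays with 4 pools a treatment and carry no test.

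**Figure D3:**
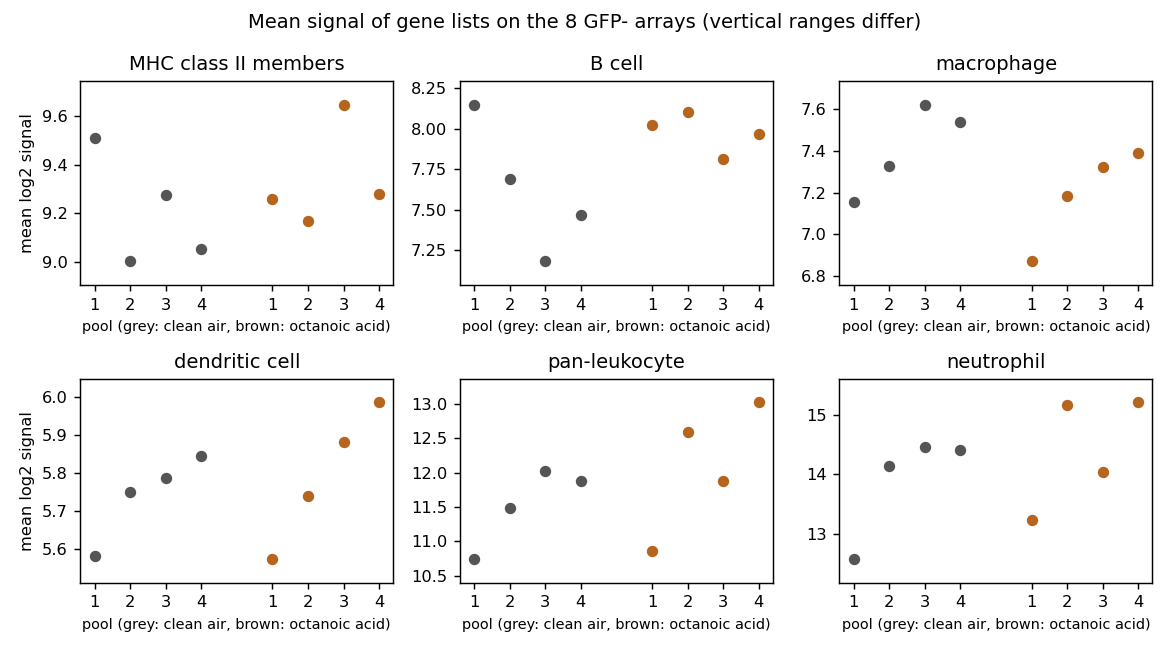
Mean log2 signal of 6 gene lists on the 8 GFP- arrays, by pool, with clean air (grey) and octanoic acid (brown). The vertical ranges differ between panels. Pool 1 with clean air is highest for the class II and B cell lists of its treatment. It is lowest for the macrophage, dendritic cell, pan-leukocyte and neutrophil lists.

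The effect of octanoic acid on these genes was asked in GFP+ cells, in GFP- cells and on the difference between them. limma called none of the 19505 genes in any of these comparisons (0% called; 716, 741 and 871 genes had an unadjusted p under 0.05), and so none of the 6 class II genes. In GFP- cells octanoic acid minus clean air was -0.15 log2 for H2-Aa (95% interval -0.85 to 0.54), 0.13 for H2-Ab1 (-0.36 to 0.61) and 0.43 for H2-Eb1 (-0.23 to 1.09). For H2-DMb1 it was 0.01 (-0.40 to 0.43). The groups overlapped for all 6 genes, where 2.27% of all genes had groups that did not, and a change larger than those bounds lies outside the intervals, which are not adjusted for the number of genes.

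In GFP+ cells the partner chains of I-A pointed in opposite directions without passing the test. H2-Aa was 0.90 log2 higher with octanoic acid (7.32 ± 0.61 against 6.42 ± 0.33, SD, n = 4; 95% interval 0.25 to 1.55; limma adjusted p = 0.955). All 4 octanoic acid arrays lay above all 4 clean-air arrays, the lowest of them at 6.75 log2 and the highest clean-air array at 6.71. Groups that do not overlap in either direction were found for 2.29% of all genes in this comparison. Without odor pool 3 the difference was 0.63 log2. H2-Ab1 was 0.43 log2 lower (6.57 ± 0.16 against 7.00 ± 0.52; 95% interval -0.97 to 0.12; limma adjusted p = 0.955), and its groups overlapped. All of these signals lie near the background. On that same GFP+ array of odor pool 3 the sustentacular marker mean was 9.93 log2. The other GFP+ arrays with octanoic acid had 7.94 to 8.52. Of these 4 arrays it also had the highest pan-leukocyte (7.12), B cell (6.68), T cell (6.03) and dendritic cell (5.66) means. The macrophage and neutrophil means were highest in pool 4 instead (6.52 and 7.47 log2). The part of any of these cells in the H2-Aa value was not tested.

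The difference between fractions was smaller for H2-Aa with octanoic acid, by 1.05 log2 (from -4.72 to -3.67, 95% interval 0.38 to 1.72). This did not pass the test (limma adjusted p = 0.940). The pools of the treatments did not overlap, as for 2.54% of all genes. With clean air the GFP+ mean of H2-Aa lay at the background, where its fold is a lower bound. For the other 5 genes the effect on the difference was negative, from -0.16 to -0.72 log2, with intervals that include 0 and limma adjusted p from 0.940 to 0.957. Leaving out vehicle pool 1, which had the largest H2-Aa difference of all pools (-5.59), lowered the H2-Aa effect to 0.76 log2. These comparisons share samples with those of GFP+ against GFP- cells, and their values are given side by side for that reason.

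**Figure D4:**
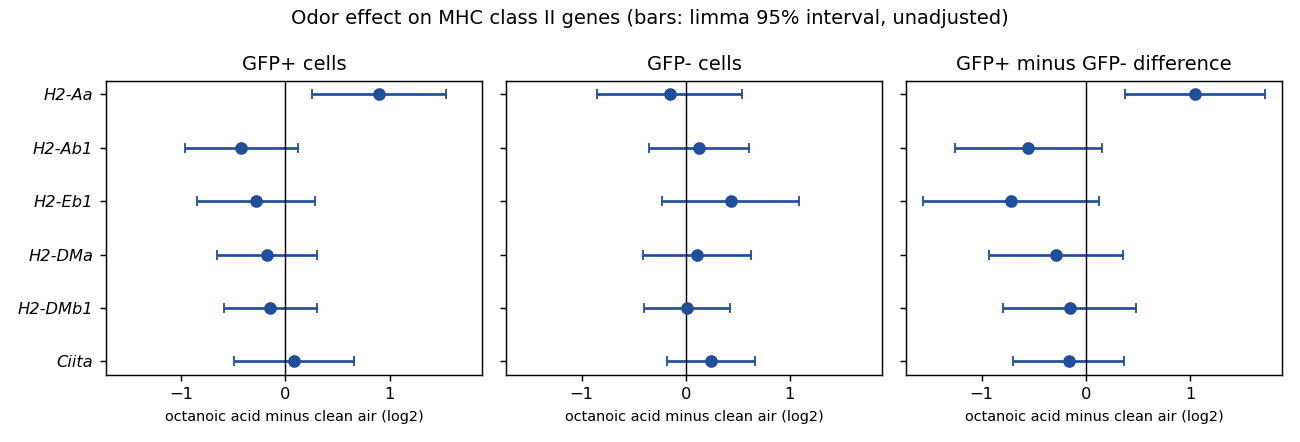
Octanoic acid minus clean air in log2 for the 6 class II genes, in GFP+ cells, in GFP- cells and for the within-pool difference, with limma 95% intervals that are not adjusted for the number of genes. H2-Aa lies above 0 in GFP+ cells (0.90) and in the difference (1.05), and the intervals of the other genes include 0.

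Genes whose profile over the 16 arrays lay closest to the median class II profile were found by the root mean square difference after centring each gene on its mean. The closest were Rasa3 (0.25 log2), Rnf144a (0.29), Slfn8 (0.30), Cd72 (0.31), Insm1 (0.31), Grn (0.32), Sh3bp2 (0.32), Plekho1 (0.32), Gng12 (0.33) and Tax1bp3 (0.33). Cd72 is a B cell coreceptor and Insm1 a factor of neuronal progenitors, so the list joins genes of different cell types. Their differences between fractions ran from -2.36 to -1.44 log2, a direction that the choice by likeness to the class II profile fixes. The class II genes themselves lay 0.50 (H2-DMa) to 1.43 log2 (H2-Ab1) from their own median profile, farther than these 10 genes.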

How the data were processed

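Clariom S arrays of 16 sorted samples (50 to 100 ng of total RNA each) were analysed. Per the submitters' processing notes, the authors used Affymetrix Expression Console. Its version, summary method and background step are not given in the sources used here. What the authors deposited is 1 log2 signal for each probe set, a scale read from the values. Of 28846 probe sets 6640 are controls, 19572 carry 1 gene symbol in the platform annotation, none carries several, and 2634 are unnamed. The brightest probe set of a gene was kept (67 left out), which gave 19505 genes. Gene coordinates are not given, since the files name no build; promoter coordinates are RefSeq's.

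The within-pool difference was tested with limma 3.58.1 in R 4.3.3 (lmFit, eBayes, two-sided), each treatment against 0 and the treatments against each other; The treatments were also compared within GFP+ and within GFP- arrays. Benjamini-Hochberg adjustment covered all genes, at 0.05. Pools are labelled as separate sets of mice. The titles give each pool's GFP+ and GFP- cells as those of the same mice. Odor and vehicle pools also share numbers: correlations of their deviations were 0.100 to 0.237 for the differences, 0.100 to 0.371 in GFP+ cells and -0.0986 to 0.408 in GFP- cells, so the limit of 0.1 for a pairing was reached narrowly in the first 2 and not in GFP- cells.

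Named genes are the members, S100a5, genes of the lists, and the 10 genes of most similar profile (no Gm or Rik models, no olfactory receptors). The members and lists were chosen with earlier results of these data known. The fit was tested on simulated arrays drawn independently, with no effect shared within a pool, so that test cannot check the pairing. Alternatives were scaling, a filter and a floor on dim genes, probe set averaging, a variance trend, blocks and left-out pools.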

Additional observations from a re-analysis of the deposited data

How the results depend on the processing

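H2-Aa, H2-Ab1 and H2-Eb1 stayed lower in GFP+ cells and past the threshold under each alternative in which they were tested (H2-Aa -4.86 to -4.43 log2 with clean air and -3.77 to -3.37 with octanoic acid). The count of members called lower, 5 in each treatment, was 3 in both with arrays floored at the background. When dim genes were left out, 3 members were tested and 3 were called. That filter kept genes whose highest group mean exceeded 10.41 log2. H2-Aa and H2-Ab1 passed it through GFP- cells alone, so their calls there are no separate support. The count of members called ranged from 3 to 5 with clean air and from 4 to 5 with octanoic acid when 1 pool was left out. The calls lost were those of the DM chains. No member was called for octanoic acid under any alternative, and a replicate block pairing odor with vehicle pools changed no call (H2-Aa adjusted p = 0.781 for the difference and 0.826 in GFP+ cells). Without the pool as a block, GFP+ against GFP- cells again gave 5 members lower in each treatment.

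Signs turned for the following values, none of which had passed a test. For Ciita, GFP+ minus GFP- was 0.18 log2 with quantile normalization, 0.26 with array median centring, 0.023 with the floor and 0.057 without odor pool 3 and vehicle pool 4 with clean air, and 0.013 and 0.13 with the first 2 with octanoic acid. Without those 2 pools the odor effect in GFP+ cells was 0.0041 for H2-DMa and -0.25 for Ciita, and in GFP- cells -0.073 for H2-Ab1. For H2-DMb1 in GFP- cells it was -0.0052 with quantile normalization and -0.027 with array median centring. With 1 pool left out Ciita ranged from -0.16 to 0.057 (clean air) and its odor effect in GFP+ cells from -0.19 to 0.21. The odor effects of H2-DMb1 ranged from -0.33 to 0.083 (difference), from -0.23 to 0.021 (GFP+) and from -0.12 to 0.11 (GFP-), those in GFP- cells of H2-Aa from -0.48 to 0.049 and of H2-DMa from -0.012 to 0.31. The cause was not tested.

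Over all genes the calls, 3006 with clean air and 3347 with octanoic acid, were 7653 and 9506 with array median centring, 1961 and 2088 with the floor, and 1395 and 1362 of 5154 genes without dim genes; the floor also gave 1 gene for the odor effect on the difference, where there had been 0. Low signal limits H2-DMa, H2-Eb1 in GFP+ cells and Ciita.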

Other observations

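Genes of the MHC class I pathway, which most nucleated cells use to show peptides from the cytosol, were also lower in GFP+ cells. Of 11 measured genes 7 fell in each treatment and none rose, where 9.58% and 10.9% of all genes were called lower. The medians were -1.22 log2 in vehicle pools and -1.41 in odor pools, the latter being the value of H2-Q4. Both fractions lay at the background for H2-Q4 in each treatment, and for Psmb8 with clean air. B2m, the light chain shared by class I molecules, was lower by at least 41.2-fold in vehicle pools (15.32 against 9.96 log2) and by at least 42.1-fold in odor pools. The heavy chain gene H2-K1 was lower by at least 10.9-fold and 11.7-fold, and H2-D1 by at least 7.11-fold and 10.4-fold, although class I heavy chains are similar enough that probe sets may share signal. Tap1, a subunit of the peptide transporter, fell by 1.22 and 1.55 log2, while Tap2 (-0.29 ± 0.35 and -0.29 ± 0.53; SD, n = 4) and the loading factor Tapbp (-0.14 ± 0.19 and -0.07 ± 0.44) were not called by limma. The pan-leukocyte genes fell in the same samples, and their part in these differences was not tested.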
